A study of Mus musculus with 24 samples.

Results

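The comparison asked how the hypothalamus of mice given growth hormone (GH) changed 3 days after a pituitary stalk electrical lesion (PEL). It used 6 of the 24 libraries of the series: the 3 lesioned libraries of the PEL_3d_GH group against the 3 sham-operated libraries of the Sham_GH group, chosen by the column names of the deposited count table. All 6 came from hypothalamic tissue of male C57BL/6 J mice, and both groups received GH. Day 3 is the label of the lesioned mice and Day 0 that of the sham mice. The lesion, the time after surgery and any difference in time on GH therefore cannot be told apart here. The dose and duration of GH and the age of the mice were not given in the sources used here, and nothing says whether the replicates came from separate animals, so p-values measure the spread between these libraries, which may be technical.

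Total counts per library, in the order of replicates 1, 2 and 3 used throughout, were 16116528, 15804115 and 17859115 in PEL_3d_GH and 15649655, 17453164 and 16136690 in Sham_GH. Values are given as CPM, edgeR's counts scaled to library sizes after TMM, or as the deposited FPKM where levels of different genes are set side by side. The hypothalamic label held in the marker genes. The summed FPKM of the 16 hypothalamic transcription factors was 118, 129 and 133 in PEL_3d_GH and 158, 167 and 157 in Sham_GH. Arnt2, the most abundant, does not mark the hypothalamus alone, at 53.04, 64.55 and 54.55 FPKM in the hippocampal libraries of HIP_PEL_10d. The whole list summed to 60.06, 68.1 and 58.1 FPKM in those hippocampal libraries. Of the anterior pituitary genes, Pou1f1 and Ghrhr were at 0 in all 6 libraries, and Gh itself had 1 count in PEL_3d_GH and 17 in Sham_GH. 

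As background, magnocellular neurons of the supraoptic and paraventricular nuclei make vasopressin and oxytocin and send their axons through the pituitary stalk to the posterior lobe, so a stalk lesion cuts those axons. Injured axons are known to induce regeneration genes in the cell body, and the tissue around an injury gathers reactive microglia, infiltrating macrophages and reactive astrocytes. GH acts through its receptor, JAK2 and STAT5 on targets such as Socs2, Cish and Igf1.

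Among the gene lists the highest median rises were those of dividing cells, recruited macrophages and disease-associated microglia, and genes of neuronal receptors, ion channels and sterol synthesis fell by modest amounts. Gpnmb, a glycoprotein of lipid-laden phagocytes, went from about 2 CPM or less in each sham library to 710.1 CPM or more in each lesioned one. Gria2, an AMPA receptor subunit carried by most neurons, was 1.69-fold lower. The largest falls included the dopamine transporter Slc6a3 and the mammillary factor Foxb1.

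Of 14743 genes tested, 7681 (52.1%) passed at 0.05 in edgeR (quasi-likelihood F-test, p-values adjusted by Benjamini-Hochberg): 3973 (26.9%) were higher and 3708 (25.2%) lower after the lesion. The 2 directions were close in number and far apart in size. Among the higher genes 1699 (42.8%) rose at least 2-fold and 810 (20.4%) at least 4-fold, with a median log2 fold change (log2FC) of 0.83. Among the lower genes 135 (3.64%) fell at least 2-fold and 12 (0.324%) at least 4-fold, with a median of -0.44. Over all genes tested the median log2FC was -0.002. For each list at day 3 under GH below, the shares of all genes to compare are 26.9% higher and 25.2% lower. Single values in brackets after a gene, or after a library that was left out, are log2FC.

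The lowered genes were the more abundant ones: their median level was 62.1 CPM, against 19.0 CPM for the higher genes and 18.9 CPM for those that did not pass. Lowered genes took 34.0%, 34.7% and 38.3% of the normalized counts in PEL_3d_GH and 48.2%, 48.2% and 48.1% in Sham_GH. Higher genes took 27.7%, 27.9% and 23.1% in PEL_3d_GH and 14.5%, 14.4% and 14.6% in Sham_GH. In bulk tissue, fewer cells of a type and less RNA per cell cannot be told apart. In 9004 genes (61.1%) the libraries of the groups did not overlap in CPM, 4551 with the lesioned libraries above and 4453 with them below.

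In the genes that rose, replicate 3 of PEL_3d_GH stood nearer to the sham libraries than replicates 1 and 2. On a scale where the mean of the sham libraries is 0 and the mean of the lesioned ones 1, the 1699 genes that rose at least 2-fold had median positions of 1.074, 1.097 and 0.829 in replicates 1, 2 and 3 of PEL_3d_GH. For the 135 genes that fell at least 2-fold the positions were 1.17, 0.92 and 0.94. Without replicate 3 of PEL_3d_GH, 4562 genes were higher and 4253 lower.

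**Figure D1:**
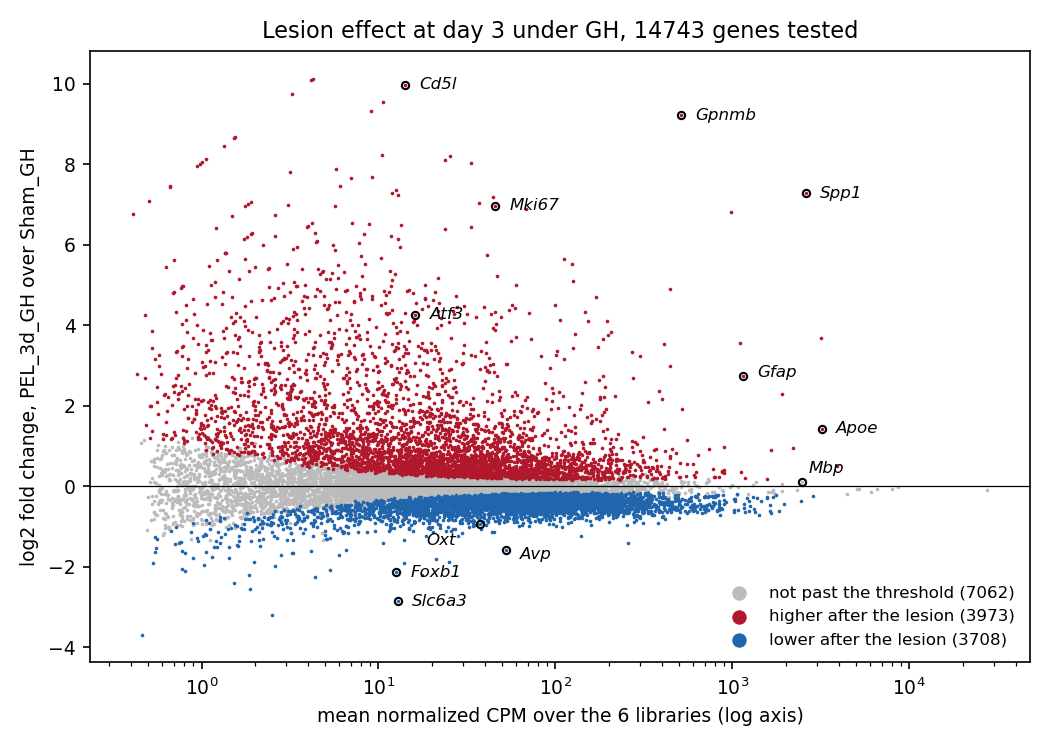
Log2 fold change of PEL_3d_GH over Sham_GH (vertical axis) against the mean CPM over the 6 libraries (horizontal axis, logarithmic) for the 14743 genes tested, with 3973 higher genes in red, 3708 lower genes in blue and the rest in grey. Rises reach log2FCs of 8 and above, while only 12 called genes fell at least 4-fold.

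Vasopressin and oxytocin transcripts were lower after the lesion, and galanin, a peptide that magnocellular neurons also make, was higher. Avp (chr2:130580620-130582554 of GRCm38) held 6.57, 60.3 and 12.4 CPM in PEL_3d_GH and 72.6, 84.4 and 78.8 in Sham_GH. Every lesioned library lay below every sham library, but replicate 2 of PEL_3d_GH was far closer to the sham level than the other lesioned libraries. The fall passed the test (log2FC -1.58, SE 0.57, edgeR adjusted p = 0.0402, n = 3 libraries per group), and without that replicate it was larger, with a log2FC of -3.04. The Avp call was lost in DESeq2 and when any 1 of the other libraries was left out, PEL_3d_GH 1 (-1.12), PEL_3d_GH 3 (-1.23), Sham_GH 1 (-1.64), Sham_GH 2 (-1.52) or Sham_GH 3 (-1.57), with edgeR, DESeq2 and limma adjusted p from 3.03e-06 to 0.139 over the alternatives.

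Oxt (chr2:130576173-130577054), which lies next to Avp, held 11.7, 28.998 and 35.9 CPM after the lesion and 36.2, 65.9 and 45.05 in sham libraries. The groups did not overlap, although replicate 3 of PEL_3d_GH came within 1 CPM of the lowest sham library (log2FC -0.94, SE 0.33, edgeR adjusted p = 0.0372). The Oxt call was lost in DESeq2, in the fit over all hypothalamic groups and without PEL_3d_GH 1 (-0.59), Sham_GH 2 (-0.66) or Sham_GH 3 (-0.99), with edgeR, DESeq2 and limma adjusted p from 0.00172 to 0.166. Gal held 109, 42.05 and 88.6 CPM in PEL_3d_GH and 26.4, 27.6 and 27.6 in Sham_GH, so that replicate 2 of PEL_3d_GH, the library with the most Avp, also had the least Gal of the lesioned libraries (log2FC 1.55, SE 0.27, edgeR adjusted p = 0.00089). Dynorphin, the opioid peptide of vasopressin neurons, fell as well: Pdyn was at 46.3, 53.8 and 67.3 CPM against 78.1, 91.5 and 82.5 (log2FC -0.59, SE 0.12, edgeR adjusted p = 0.00261).

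Of the 10 magnocellular and co-expressed peptides, 1 rose, 5 fell and 4 did not pass, with a median log2FC of -0.17. Cck, a peptide of oxytocin neurons and of many others, fell with a log2FC of -1.03, while Penk, Nucb2, Trh and Vip did not pass. Among 18 tested of 21 other hypothalamic peptides and their enzymes, 1 was higher, 5 were lower and 12 did not pass, against 26.9% and 25.2% of all genes. Agrp, the orexigenic peptide of the arcuate nucleus, was at 2.03, 3.59 and 3.72 CPM against 9.33, 5.98 and 5.17 (log2FC -1.12, SE 0.29, edgeR adjusted p = 0.00782). Bdnf, a neurotrophin, was at 12.3, 15.5 and 14.5 against 26.4, 21.5 and 21.4 CPM, with no overlap (log2FC -0.71, SE 0.13, edgeR adjusted p = 0.00104). The Agrp call was lost in the fit over all hypothalamic groups, with adjusted p from 0.00113 to 0.0767 over the edgeR, DESeq2 and limma alternatives, and its exons overlap those of Ctcf and Gm5914.

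Some of the other peptides govern the anterior pituitary. Sst, somatostatin, was at 101, 71.2 and 134 CPM after the lesion and 88.9, 120.4 and 109 in sham libraries, which overlap (log2FC -0.054, SE 0.19, edgeR adjusted p = 0.833). Ghrh, GH-releasing hormone, was at 2.95, 2.33 and 3.33 against 3.54, 4.48 and 4.095 CPM, with each lesioned library below each sham library and no call (log2FC -0.49, SE 0.22, edgeR adjusted p = 0.0821), although it passed in limma and without PEL_3d_GH 3 (-0.61). Crh, the stress peptide of the paraventricular nucleus, was at 1.54, 0.756 and 3.72 against 0.772, 1.84 and 1.51 CPM and overlapped (log2FC 0.55, SE 0.53, edgeR adjusted p = 0.407); without PEL_3d_GH 3 its direction reversed (-0.26), and that of Sst did without PEL_3d_GH 2 (0.15). Gnrh1 was higher, at 1.597, 1.26 and 1.61 against 0.257, 0.747 and 0.945 CPM (log2FC 1.18, SE 0.41, edgeR adjusted p = 0.0343). Its call was lost without PEL_3d_GH 1 (1.13), PEL_3d_GH 3 (1.13), Sham_GH 1 (0.81) or Sham_GH 2 (1.300), or with DESeq2, with edgeR, DESeq2 and limma adjusted p from 0.0188 to 0.106 over the alternatives.

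The enzymes and granins that make and store peptide hormones mostly fell: 9 of 11 were lower, against 25.2% of all genes, and 2 did not pass, with a median log2FC of -0.45. Pcsk1, a prohormone convertase, held 61.1, 68.4 and 71.5 CPM in PEL_3d_GH and 111, 111 and 108 in Sham_GH. The groups lay well apart, with little spread inside each (log2FC -0.71, SE 0.071, edgeR adjusted p = 2.78e-05). Pcsk2, its partner enzyme, went the same way at 187, 195 and 229 against 301, 296 and 306 CPM (log2FC -0.56, SE 0.080, edgeR adjusted p = 0.000249). Scg3 and Vgf were the members that did not pass, with log2FCs of 0.16 and 0.019.

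Transcription factors that mark hypothalamic nuclei fell in 9 of 16 cases, against 25.2% of all genes, with a median of -0.43. Sim1, a factor of the paraventricular and supraoptic nuclei, was at 8.35, 10.7 and 9.15 CPM against 18.7, 19.7 and 15.8 (log2FC -0.94, SE 0.14, edgeR adjusted p = 0.000283). Otp, which marks the same nuclei, was at 33.3, 35.2 and 46.3 against 39.5, 49.99 and 47.8 CPM and overlapped (log2FC -0.26, SE 0.13, edgeR adjusted p = 0.131), and it passed with a replicate block and without PEL_3d_GH 3 (-0.41). Lhx1, a factor of the mammillary and suprachiasmatic regions, fell with a log2FC of -1.06. Nkx2-1, a ventral hypothalamic factor also found in pituicytes, was at 18.6, 19.9 and 16.6 against 33.6, 30.1 and 27.1 CPM (log2FC -0.72, SE 0.11, edgeR adjusted p = 0.000412). Nkx2-2, a factor also of oligodendrocyte precursors, was the 1 member that rose, with a log2FC of 0.79.

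Genes of the axon injury response rose in 15 of 24 tested members, against 26.9% of all genes, with a median log2FC of 0.68. Atf3, a stress factor induced in axotomized neurons, held 34.1, 26.9 and 31.2 CPM in PEL_3d_GH and 1.48, 1.38 and 1.95 in Sham_GH. The lesioned libraries were alike and replicate 3 was no lower than replicate 2 (log2FC 4.26, SE 0.17, edgeR adjusted p = 1.34e-07). Sprr1a, a small proline-rich protein of regenerating axons, was nearly absent from sham libraries at 0.193, 0 and 0.063002 CPM and reached 25.8, 10.02 and 18.9 after the lesion (log2FC 7.67, SE 0.59, edgeR adjusted p = 5.57e-06). Jun, a partner of Atf3 in AP-1, was already abundant and rose less, from 51.3, 49.4 and 41.1 to 78.1, 73.6 and 73.8 CPM (log2FC 0.67, SE 0.089, edgeR adjusted p = 0.000168).

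Some members of the same list went down. Gap43, a growth cone protein, Flrt3, an adhesion molecule, and Galr1, a galanin receptor, were lower, with log2FCs of -0.29, -0.34 and -0.47. The Flrt3 call was lost without PEL_3d_GH 1 (-0.30) or Sham_GH 3 (-0.31), and that of Galr1 without PEL_3d_GH 1 (-0.38), PEL_3d_GH 2 (-0.48), Sham_GH 1 (-0.46) or Sham_GH 2 (-0.40), or with DESeq2, a mean count of at least 50, a replicate block or limma, with edgeR, DESeq2 and limma adjusted p from 0.000275 to 0.0607 and from 0.0205 to 0.14.

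Among injury cytokines and gp130 signalling genes, the cytokine Osm, its receptor Osmr, Stat3 and Socs3 rose. Osm, oncostatin M, was near the floor in sham libraries at 0.0643, 0.0575 and 0.126 CPM and held 2.03, 1.89 and 1.28 after the lesion (log2FC 4.27, SE 0.50, edgeR adjusted p = 7.45e-05). These sham values lie below 3 counts per library, so the log2FC of Osm is inexact. Its receptor Osmr went from 6.305, 6.55 and 5.54 to 36.4, 44.6 and 24.3 CPM, with no overlap (log2FC 2.51, SE 0.21, edgeR adjusted p = 9.03e-06). Stat3 held 178, 179.5 and 149 CPM against 105, 101 and 90.4 (log2FC 0.77, SE 0.088, edgeR adjusted p = 6.7e-05), and Socs3, the feedback inhibitor that STAT3 induces, 25.98, 20.5 and 15.97 against 6.37, 4.9995 and 10.3 (log2FC 1.53, SE 0.25, edgeR adjusted p = 0.000676). In all, 18 of 22 tested members of the list of 26 injury cytokines and gp130 genes rose and 4 did not pass, with a median of 1.57. The largest rises were those of Il1rn, the interleukin 1 receptor antagonist, and Csf2rb, a receptor chain of myeloid cells, at 4.94 and 4.299. Il1b did not pass, with a log2FC of 1.14, Il6 and Tnf were too low to test, and Il10 was at 0 in all 6 libraries.

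Chemokines rose in 11 of 15 tested members (of 22 listed), with a median of 2.67. Ccl3 held 10.5, 8.45 and 4.77 CPM against 0.0643, 0.0575 and 0.126, a difference far beyond the spread inside either group (log2FC 6.46, SE 0.50, edgeR adjusted p = 5.45e-06), and Ccl4, its relative, had a log2FC of 5.35. The sham values of Ccl3 lie below 3 counts per library, so its log2FC is inexact. Ccl2, the monocyte attractant, was at 5.04, 4.85 and 3.605 against 0.386, 0.115 and 1.64 CPM, and without replicate 3 of Sham_GH its log2FC was 4.17 in place of 2.67 (edgeR adjusted p = 0.00243, from 1.1e-05 to 0.0155 over the alternatives). Cx3cl1, the neuronal chemokine read by microglia, was the 1 that fell, from 271, 261 and 256 to 165, 169.9 and 209.9 CPM (log2FC -0.53, SE 0.090, edgeR adjusted p = 0.00075).

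Genes of resting microglia rose, and so did genes of phagocytic, disease-associated microglia. P2ry12, the purinergic receptor of surveying microglia, held 55.9, 49.5 and 47.3 CPM in PEL_3d_GH and 17.6, 21.03 and 18.02 in Sham_GH (log2FC 1.43, SE 0.10, edgeR adjusted p = 3.45e-06). Tmem119 was at 55.4, 48.98 and 48.6 against 14.3, 15.7 and 14.1 CPM (log2FC 1.79, SE 0.093, edgeR adjusted p = 5.57e-07), and Cx3cr1 at 191, 191 and 144 against 31.9, 40.1 and 31.1 (log2FC 2.35, SE 0.13, edgeR adjusted p = 8.3e-07). Fcrls, a receptor-like microglial marker, rose as well (4.11). Of 14 resting microglial genes, 13 rose and Sparc did not pass, with a median log2FC of 1.78, and their summed FPKM was 1732, 1655 and 1495 against 922, 891 and 946. Most of the sham sum was Sparc, a matrix protein that other cells also make, at 788, 733 and 803 FPKM in Sham_GH and 695, 702 and 726 in PEL_3d_GH.

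All 21 tested genes of disease-associated microglia were higher, against 26.9% of all genes, with a median log2FC of 3.68. Their summed FPKM was 14440.0, 13990.0 and 9383 in PEL_3d_GH and 1936, 1871 and 1963 in Sham_GH, with Apoe the most abundant. Trem2, the lipid receptor of phagocytic microglia, held 89.9, 90.2 and 75.3 CPM after the lesion and 6.305, 5.402 and 5.61 in sham libraries (log2FC 3.88, SE 0.11, edgeR adjusted p = 3.1e-08). Its adaptor Tyrobp was at 148, 140.3 and 118 against 6.82, 7.13 and 6.62 CPM (log2FC 4.301, SE 0.11, edgeR adjusted p = 2.78e-08). Both genes are among the 5 higher ones with the lowest adjusted p in edgeR. Clec7a, a receptor of this state, moved from 0.708, 0.919 and 0.63002 to 74.8, 75.3 and 48.3 CPM (log2FC 6.43, SE 0.25, edgeR adjusted p = 1.34e-07).

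Gpnmb (chr6:49036546-49070929) held 1220.3, 1143 and 710.1 CPM in PEL_3d_GH and 1.93, 2.01 and 1.197 in Sham_GH. Replicate 3 was the lowest of the lesioned libraries and still stood far above the sham libraries (log2FC 9.21, SE 0.28, edgeR adjusted p = 3.47e-08). Spp1, osteopontin, was among the most abundant transcripts after the lesion at 6372, 6156 and 2919.9 CPM, against 30.7, 44.02 and 24.8 in sham libraries (log2FC 7.27, SE 0.36, edgeR adjusted p = 4.22e-07). Lgals3, galectin-3, held 145, 157 and 102 CPM against 1.74, 0.747 and 0.945 (log2FC 6.89, SE 0.25, edgeR adjusted p = 9.41e-08). Apoe, made by astrocytes and microglia, rose from an already high level of 1734, 1658 and 1811 to 5082, 4883 and 3991 CPM (log2FC 1.42, SE 0.10, edgeR adjusted p = 2.6e-06).

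Among the largest rises 8 had no count in any sham library, so their folds are lower bounds against a floor of 3 counts per library. F7, coagulation factor VII, held 10.01, 8.83 and 6.599 CPM after the lesion, at least 46.5-fold higher (edgeR adjusted p = 5.01e-06). Clec4d, a C-type lectin of myeloid cells, held 9.46, 10.2 and 5.21 CPM, at least 45.5-fold higher (edgeR adjusted p = 1.76e-05), and Cd300lf 8.6002, 6.75 and 4.05 CPM, at least 35.4-fold higher (edgeR adjusted p = 2.89e-05). F10 (coagulation factor X) held 3.01, 4.16 and 2.11 CPM, Mmp10 (stromelysin-2) 3.69, 3.85 and 1.66, Clec2i (a lectin) 3.62, 2.396 and 1.996, Olr1 (a receptor for oxidized lipoprotein) 2.703, 2.65 and 0.998 and Mcoln2 (an endolysosomal channel) 1.97, 2.46 and 1.61. They were at least 17.0, 16.8, 14.7, 11.6 and 11.0-fold higher. Cd5l, a macrophage protein, had 1 count in the sham group and 41.1, 23.95 and 19.5 CPM after the lesion (edgeR adjusted p = 1.16e-06). Apoc2, an apolipoprotein that activates lipoprotein lipase, had 3 sham counts and 25.4, 21.9 and 15.1 CPM after the lesion (edgeR adjusted p = 5.24e-07).

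Genes of recruited monocytes and macrophages rose in 12 of 13 tested members (of 15 listed), with a median of 4.04. Their summed FPKM was 1974, 2117 and 1160.0 in PEL_3d_GH and 78.2, 96.2 and 67.8 in Sham_GH. Most of the sum after the lesion was Lyz2, at 1685, 1797 and 993.3 FPKM, against 12.33, 18.11 and 8.429 in Sham_GH. Lyz2, the lysozyme of myeloid cells and the most abundant member after the lesion, held 2195, 2356 and 1295 CPM against 16.3, 23.9 and 11.3 (log2FC 6.82, SE 0.31, edgeR adjusted p = 3.23e-07). Ccr2, the chemokine receptor of inflammatory monocytes, reached 8.35, 8.64 and 4.16 CPM from 0.965, 2.93 and 0.882 (log2FC 2.11, SE 0.43, edgeR adjusted p = 0.00241). Gda, guanine deaminase, which neurons also express, was the 1 member that fell, with a log2FC of -0.48.

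Border macrophage genes rose in 9 of 10 members, with summed FPKM of 131, 124 and 73.3 against 6.55, 9.28 and 6.72 and Stab1 the most abundant. F13a1, the coagulation factor XIII subunit of these cells, held 137, 147 and 63.2 CPM against 1.99, 5.804 and 2.77 (log2FC 5.01, SE 0.40, edgeR adjusted p = 6.47e-06). Siglec1, sialoadhesin, had a log2FC of 4.83. Mrc1, the mannose receptor, rose less, from 5.28, 9.08 and 4.599 to 28.4, 24.5 and 13.03 CPM (log2FC 1.79, SE 0.31, edgeR adjusted p = 0.000864). Replicate 3 was the lowest of the lesioned libraries in each macrophage gene given here.

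Markers of other blood cells stayed low. For neutrophils 5 of 13 genes could be tested and 4 rose, against 26.9% of all genes. Their summed FPKM was 21.6, 23.5 and 15.6 against 6.82, 4.57 and 7.96. Csf3r, the receptor for granulocyte colony-stimulating factor that microglia also express, was the most abundant after the lesion, at 28.4, 25.7 and 20.1 against 2.64, 2.47 and 2.77 CPM (log2FC 3.23, SE 0.17, edgeR adjusted p = 5.47e-07). Mmp8, a collagenase of neutrophils, had a log2FC of 4.96, while Ly6g, Elane and Mpo were too low to test. For T cells 4 of 11 genes were tested and Cd4 alone passed in edgeR, near the 26.9% of all genes. Cd4 was at 1.66, 1.51 and 1.22 against 0.129, 0.575 and 0.504 CPM (log2FC 1.82, SE 0.44, edgeR adjusted p = 0.00612). The summed FPKM of the T cell genes was 5.35, 6.81 and 6.11 against 5.06, 6.72 and 3.89, with Trac the most abundant.

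Of the B cell genes 2 of 7 were tested and both rose, against 26.9% of all genes. Cd79b went from 0.129, 0.115 and 0.315 to 0.983, 1.51 and 1.39 CPM (log2FC 2.76, SE 0.47, edgeR adjusted p = 0.000818), and Ighm had a log2FC of 0.74. The summed FPKM of the B cell genes was 7.84, 9.61 and 10.02 against 5.14, 6.01 and 4.20. The red blood cell list summed to 62.1, 49.2 and 95.9 FPKM in PEL_3d_GH and 73.5, 64.9 and 69.9 in Sham_GH. Hbb-bs held 10.2, 5.7997 and 16.9 CPM against 6.37, 4.597 and 5.17, and the groups overlapped although it passed the test (log2FC 1.03, SE 0.33, edgeR adjusted p = 0.0226). Its call was lost without PEL_3d_GH 3 (0.58), Sham_GH 2 (0.94) or Sham_GH 3 (1.02), or with the fit over all hypothalamic groups, with edgeR, DESeq2 and limma adjusted p from 0.00123 to 0.153. Hbb-bt, the neighbouring globin, rose too (1.29) and lost its call without PEL_3d_GH 1 (1.28), PEL_3d_GH 3 (0.74), Sham_GH 1 (1.32), Sham_GH 2 (1.33) or Sham_GH 3 (1.23), or with the fit over all hypothalamic groups or limma (edgeR, DESeq2 and limma adjusted p from 0.0022 to 0.188). The part of blood in these values was not tested.

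Lysosomal and phagocytic genes were higher in 32 of 32 tested members, with a median log2FC of 2.298. Ctsd, the protease cathepsin D, held 6509, 6548 and 4637 CPM in PEL_3d_GH and 459, 463 and 456 in Sham_GH (log2FC 3.68, SE 0.13, edgeR adjusted p = 9.41e-08). Cd68, a lysosomal glycoprotein of phagocytes, went from 3.41, 5.69 and 3.91 to 234, 257 and 166 CPM (log2FC 5.64, SE 0.21, edgeR adjusted p = 1.21e-07). Msr1, a scavenger receptor, held 56.1, 58.3 and 26.6 CPM against 0.579, 0.517 and 0.567 (log2FC 6.39, SE 0.39, edgeR adjusted p = 1.42e-06). Atp6v0d2, a proton pump subunit of macrophages and osteoclasts, had 1 count in the sham group and 21.5, 23.9 and 8.65 CPM after the lesion (edgeR adjusted p = 6.7e-06).

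Complement genes rose in 18 of 19 members, with a median of 2.27; the exception was Cd55, with a log2FC of 0.17. C1qa, C1qb and C1qc, the chains of the classical pathway's recognition protein, were also among the 5 higher genes with the lowest adjusted p. C1qc held 427, 393 and 336 CPM against 26.2, 28.8 and 26.2 (log2FC 3.83, SE 0.10, edgeR adjusted p = 2.78e-08). C3ar1, the receptor for the C3a fragment, was at 102, 107 and 62.8 against 2.25, 2.53 and 2.46 CPM (log2FC 5.22, SE 0.23, edgeR adjusted p = 2.93e-07).

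Antigen presentation and interferon genes rose by smaller amounts. All 12 tested class I genes were higher, with a median of 1.74, and all 8 tested class II genes, with a median of 1.799. Psmb8 (an immunoproteasome subunit, 2.58) and Nlrc5 (a class I activator, 2.503) led the first list, and H2-DMb1 (2.41) and H2-Oa (2.29), which load peptide, the second. H2-K1, a class I heavy chain whose reads may be shared with near-identical family members, held 127, 127 and 94.8 CPM against 30.04, 37.9 and 27.8 (log2FC 1.86, SE 0.14, edgeR adjusted p = 4.57e-06). Cd74, the class II invariant chain, was at 46.1, 49.9 and 41.04 against 14.7, 20.3 and 8.44 CPM (log2FC 1.65, SE 0.23, edgeR adjusted p = 0.000257). Interferon-stimulated genes rose in 23 of 24 tested members, with a median of 1.49, and replicate 3 was not the lowest in all of them: Isg15 held 3.87, 2.84 and 4.16 CPM against 0.965, 0.919 and 0.882 (log2FC 1.97, SE 0.27, edgeR adjusted p = 0.000193). Zbp1, a sensor of nucleic acid, and Mx1, an antiviral GTPase, rose the most, at 3.84 and 3.24.

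Genes for handling heme and iron rose in 14 of 16 tested members (of 18 listed), with a median of 0.94. Hmox1, which breaks down heme, held 274, 301 and 154 CPM against 5.02, 5.57 and 5.103, the largest rise of the list (log2FC 5.53, SE 0.26, edgeR adjusted p = 3.62e-07), ahead of Slc11a1, a metal pump of phagosomes (4.68). Tfrc, the transferrin receptor that brings iron into cells, fell from 113, 105 and 108 to 74.8, 73.7 and 74.8 CPM with almost no spread in the lesioned libraries (log2FC -0.54, SE 0.060, edgeR adjusted p = 5.12e-05).

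Dividing cells left one of the clearest marks. All 38 tested genes of the cell cycle and DNA replication were higher, with a median log2FC of 4.54. Mki67 (chr7:135689784-135716361), the antigen Ki-67 of cycling cells, held 105, 115 and 51.7 CPM in PEL_3d_GH and 0.4503, 0.977 and 0.693 in Sham_GH (log2FC 6.97, SE 0.40, edgeR adjusted p = 9.3e-07). Top2a, the topoisomerase of replicating cells, was at 109, 109 and 46.6 against 0.4503, 0.862 and 0.441 CPM (log2FC 7.195, SE 0.45, edgeR adjusted p = 1.49e-06). Ccnb1, the mitotic cyclin B1, rose the most of the list (7.37). Replicate 3 of PEL_3d_GH carried less than the others in these genes but was far above every sham library. Cdkn1a, the inhibitor p21, also rose, from 13.1, 13.2 and 14.2 to 40.5, 36.9 and 29.9 CPM (log2FC 1.41, SE 0.12, edgeR adjusted p = 1.14e-05). Bulk RNA does not say which cells were dividing.

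Reactive astrocyte genes were higher after the lesion. Gfap, the intermediate filament of astrocytes, held 2212, 2244 and 1519 CPM in PEL_3d_GH and 324, 298 and 279 in Sham_GH, with replicate 3 the lowest of the lesioned libraries (log2FC 2.73, SE 0.14, edgeR adjusted p = 5.75e-07). Vim, a second filament that microglia and vessels share, was at 829.9, 949 and 496 against 68.1, 73.6 and 54.9 CPM (log2FC 3.53, SE 0.22, edgeR adjusted p = 1.56e-06). Of 22 tested reactive astrocyte genes, 21 rose and Steap4 did not pass, with a median of 2.58. Tgm1, a transglutaminase, had the largest rise of the list, to 48.2, 62.6 and 31.001 CPM from 0.0643, 0.172 and 0.252 (log2FC 8.11, SE 0.42, edgeR adjusted p = 5.37e-07). Timp1, a metalloprotease inhibitor, held 23.6, 23.7 and 13.4 CPM against 0.129, 0.862 and 0.126 (log2FC 5.68, SE 0.45, edgeR adjusted p = 6.45e-06).

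Of 18 genes of normal astrocyte work, 7 rose and 5 fell, against 26.9% and 25.2% of all genes, and 6 did not pass, with a median of -0.060, and their summed FPKM was 3003, 2994 and 3087 against 3205, 3113 and 3221. Aqp4, the water channel of astrocyte end-feet, rose from 252, 219 and 200.3 to 640.4, 679.8 and 477 CPM (log2FC 1.42, SE 0.13, edgeR adjusted p = 1.69e-05), and Gja1, connexin 43, from 266, 250.2 and 255 to 463, 444 and 379.7 (log2FC 0.74, SE 0.080, edgeR adjusted p = 4.67e-05). Slc6a11, the GABA transporter GAT-3, fell from 1068, 996 and 1108 to 554, 638 and 737 CPM (log2FC -0.72, SE 0.10, edgeR adjusted p = 0.000224). The glutamate transporters Slc1a2 and Slc1a3 fell a little, with log2FCs of -0.26 and -0.24, and so did Ndrg2, a differentiation gene, at -0.33.

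Matrix genes and matrix proteases rose in 33 of 37 members, with a median of 2.104 and 4 that did not pass. Mmp12, the macrophage metalloelastase, had 1 count in the sham group and 17.3, 30.2 and 15.8 CPM after the lesion (edgeR adjusted p = 1.13e-06), and Mmp3, stromelysin-1, had 1 sham count and 3.69, 5.11 and 1.66 CPM (edgeR adjusted p = 7.56e-05). Col1a1, fibrillar collagen, held 211, 316 and 162 CPM against 24.4, 25.3 and 13.4 (log2FC 3.44, SE 0.28, edgeR adjusted p = 6.89e-06).

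Endothelial and barrier genes rose in 16 of 25 members, with 1 lower, against 26.9% and 25.2% of all genes, and a median of 0.83. Cldn5, the tight-junction claudin of brain vessels, was higher and not lower after the lesion, at 41.3, 39.1 and 32.4 against 15.96, 16.6 and 10.02 CPM (log2FC 1.404, SE 0.17, edgeR adjusted p = 0.000105). Icam1, an adhesion molecule for leukocytes, was at 17.02, 18.3 and 12.3 against 2.25, 2.76 and 5.99 CPM (log2FC 2.11, SE 0.31, edgeR adjusted p = 0.000293). Aplnr, the apelin receptor, held 8.29, 8.89 and 5.71 CPM against 0.386, 0.115 and 0.378 (log2FC 4.69, SE 0.36, edgeR adjusted p = 5.45e-06), and Selp, the leukocyte adhesion protein P-selectin, had a log2FC of 3.12. Slco1a4, an organic anion transporter of the barrier, was the 1 member that fell, from 55.3, 57.01 and 56.8 to 43.1, 50.1 and 40.2 CPM (log2FC -0.34, SE 0.089, edgeR adjusted p = 0.00828).

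Of 12 leptomeningeal fibroblast genes 6 were higher and 1 lower, against 26.9% and 25.2% of all genes. Their summed FPKM was 2060.0, 2242 and 1786 against 2978, 2574 and 1915, with Ptgds the most abundant. Lum, the matrix protein lumican, was at 43.7, 51.5 and 29.2 against 7.08, 7.47 and 4.79 CPM (log2FC 2.68, SE 0.23, edgeR adjusted p = 9.33e-06). Ptgds, prostaglandin D synthase, held 1385, 1466 and 1246 CPM against 2269, 1927 and 1478 (log2FC -0.47, SE 0.14, edgeR adjusted p = 0.0144), and its call was lost without Sham_GH 1 (-0.32) and in the fit over all hypothalamic groups, with edgeR, DESeq2 and limma adjusted p from 0.00096 to 0.118.

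Tanycytes and ependymal cells line the third ventricle. Of their 14 genes 7 rose, 1 fell and 6 did not pass, against 26.9% higher and 25.2% lower of all genes. Crym, a thyroid hormone-binding protein of tanycytes, was at 15.7, 16.6 and 11.98 against 5.53, 6.15 and 5.42 CPM (log2FC 1.37, SE 0.16, edgeR adjusted p = 7.13e-05). Foxj1, the master factor of motile cilia, was at 37.2, 25.3 and 30.3 against 13.7, 17.5 and 14.2 CPM (log2FC 1.03, SE 0.15, edgeR adjusted p = 0.000311). Rax, which defines tanycytes, did not pass, with a log2FC of -0.53. Col23a1, a membrane collagen of tanycytes, fell (-0.41), by -0.27 without PEL_3d_GH 3, and lost its call without Sham_GH 1 (-0.37) or Sham_GH 2 (-0.37), or with the fit over all hypothalamic groups.

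The oligodendrocyte lineage was read as a precursor list and a myelin list, and a difference between the lists was not tested. Precursor genes rose in 10 of 11 members, with a median of 0.62 and summed FPKM of 400.2, 387 and 329 against 228, 229 and 231. Gpr17, a receptor of cells committed to become oligodendrocytes, held 328, 322 and 197 CPM in PEL_3d_GH and 79.2, 86.9 and 83.9 in Sham_GH (log2FC 1.76, SE 0.17, edgeR adjusted p = 1.97e-05). Pdgfra, the growth factor receptor of precursors, was at 158, 173 and 135 against 104, 106 and 108 CPM (log2FC 0.55, SE 0.088, edgeR adjusted p = 0.00054), and Vcan, the proteoglycan versican, had a log2FC of 1.04. Of 16 myelin genes 4 rose, near the 26.9% of all genes, and 12 did not pass, with a median of 0.081. Mbp, myelin basic protein, held 2507, 2307 and 2813 CPM against 2410.1, 2177 and 2561, and the groups overlapped (log2FC 0.094, SE 0.092, edgeR adjusted p = 0.42). Mog, a myelin surface protein, was at 66.5, 52.01 and 65.3 against 55.9, 52.4 and 57.9 CPM (log2FC 0.15, SE 0.10, edgeR adjusted p = 0.238), and passed without PEL_3d_GH 2 (0.25). Cldn11, a claudin of myelin, and Enpp6, a choline enzyme of newly formed oligodendrocytes, rose the most, at 0.44 and 0.41, and Enpp6 lost its call without PEL_3d_GH 1 (0.29), PEL_3d_GH 2 (0.42), Sham_GH 1 (0.37), Sham_GH 2 (0.41) or Sham_GH 3 (0.45), or with DESeq2, a replicate block or the fit over all hypothalamic groups (edgeR, DESeq2 and limma adjusted p from 0.00572 to 0.166).

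Neuronal lists were among those with the most lowered members. Of 18 general neuronal genes 14 fell and 4 did not pass, with a median log2FC of -0.47; their summed FPKM was 2355, 2310.0 and 2898 in PEL_3d_GH and 3456, 3341 and 3511 in Sham_GH, with Snap25 the most abundant. Slc17a6, the vesicular glutamate transporter of hypothalamic and thalamic neurons, held 170.5, 205 and 207 CPM against 407, 319 and 351 (log2FC -0.89, SE 0.10, edgeR adjusted p = 7.27e-05). Rbfox3, the nuclear protein NeuN, was at 52.8, 44.002 and 57.3 against 84.7, 82.2 and 96.3 CPM (log2FC -0.77, SE 0.10, edgeR adjusted p = 0.000178), and Snap25, a release protein of synapses, at 593, 596 and 739 against 982, 896 and 1079.6 (log2FC -0.62, SE 0.10, edgeR adjusted p = 0.000633). In each of them the lesioned libraries were all below the sham libraries, and replicate 3 was the highest of the lesioned ones.

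The values of GABA neuron markers were smaller than that of Slc17a6. Gad1 fell, with a log2FC of -0.35, while Gad2 and Slc32a1 did not pass, at -0.26 and -0.30. Uchl1 and Tubb3, which are abundant in most neurons, did not pass either, at -0.26 and -0.21. Whether Slc17a6 fell by more than the GABA markers was not tested.

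Neurotransmitter receptors fell in 34 of 39 tested members, against 25.2% of all genes, and 5 did not pass, with a median of -0.55. Gria2 held 156, 164 and 170.1 CPM in PEL_3d_GH and 272, 279 and 279 in Sham_GH, with tight replicates on both sides (log2FC -0.76, SE 0.060, edgeR adjusted p = 6.45e-06). Glra3, a glycine receptor subunit, was at 27.8, 26.1 and 32.9 against 53.1, 61.1 and 47.9 CPM (log2FC -0.90, SE 0.12, edgeR adjusted p = 0.000136). The receptors that did not pass were Grik1, Drd1, Avpr1a, Mc4r and Lepr, with log2FCs of -0.39, -0.35, -0.44, -0.027 and 0.28. Oxtr, the oxytocin receptor, fell with a log2FC of -0.66.

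Voltage-gated channels fell in 29 of 31 members, with a median of -0.67, and Kcnn2 and Cacna1d did not pass. Kcnh7, a potassium channel of the ERG family, held 21.5, 20.9 and 22.6 CPM against 43.2, 47.5 and 39.7, close to a 2-fold fall (log2FC -1.003, SE 0.093, edgeR adjusted p = 1.7e-05), and Kcna4, another potassium channel, fell by about as much (-0.91). Scn2a, a sodium channel of axon initial segments, was at 202, 218 and 258 against 383, 373 and 373 CPM (log2FC -0.73, SE 0.087, edgeR adjusted p = 7.95e-05). Among the 5 lowered genes with the lowest adjusted p were also the active-zone scaffold Pclo, at 159.7, 176 and 182 against 344, 351 and 309 CPM (log2FC -0.95, SE 0.075, edgeR adjusted p = 6.45e-06), the ryanodine receptor Ryr2, at 57.99, 64.4 and 67.1 against 125, 126 and 113 (log2FC -0.94, SE 0.077, edgeR adjusted p = 7.75e-06), and the vesicle protein Sv2b, with a log2FC of -0.75.

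**Figure D2:**
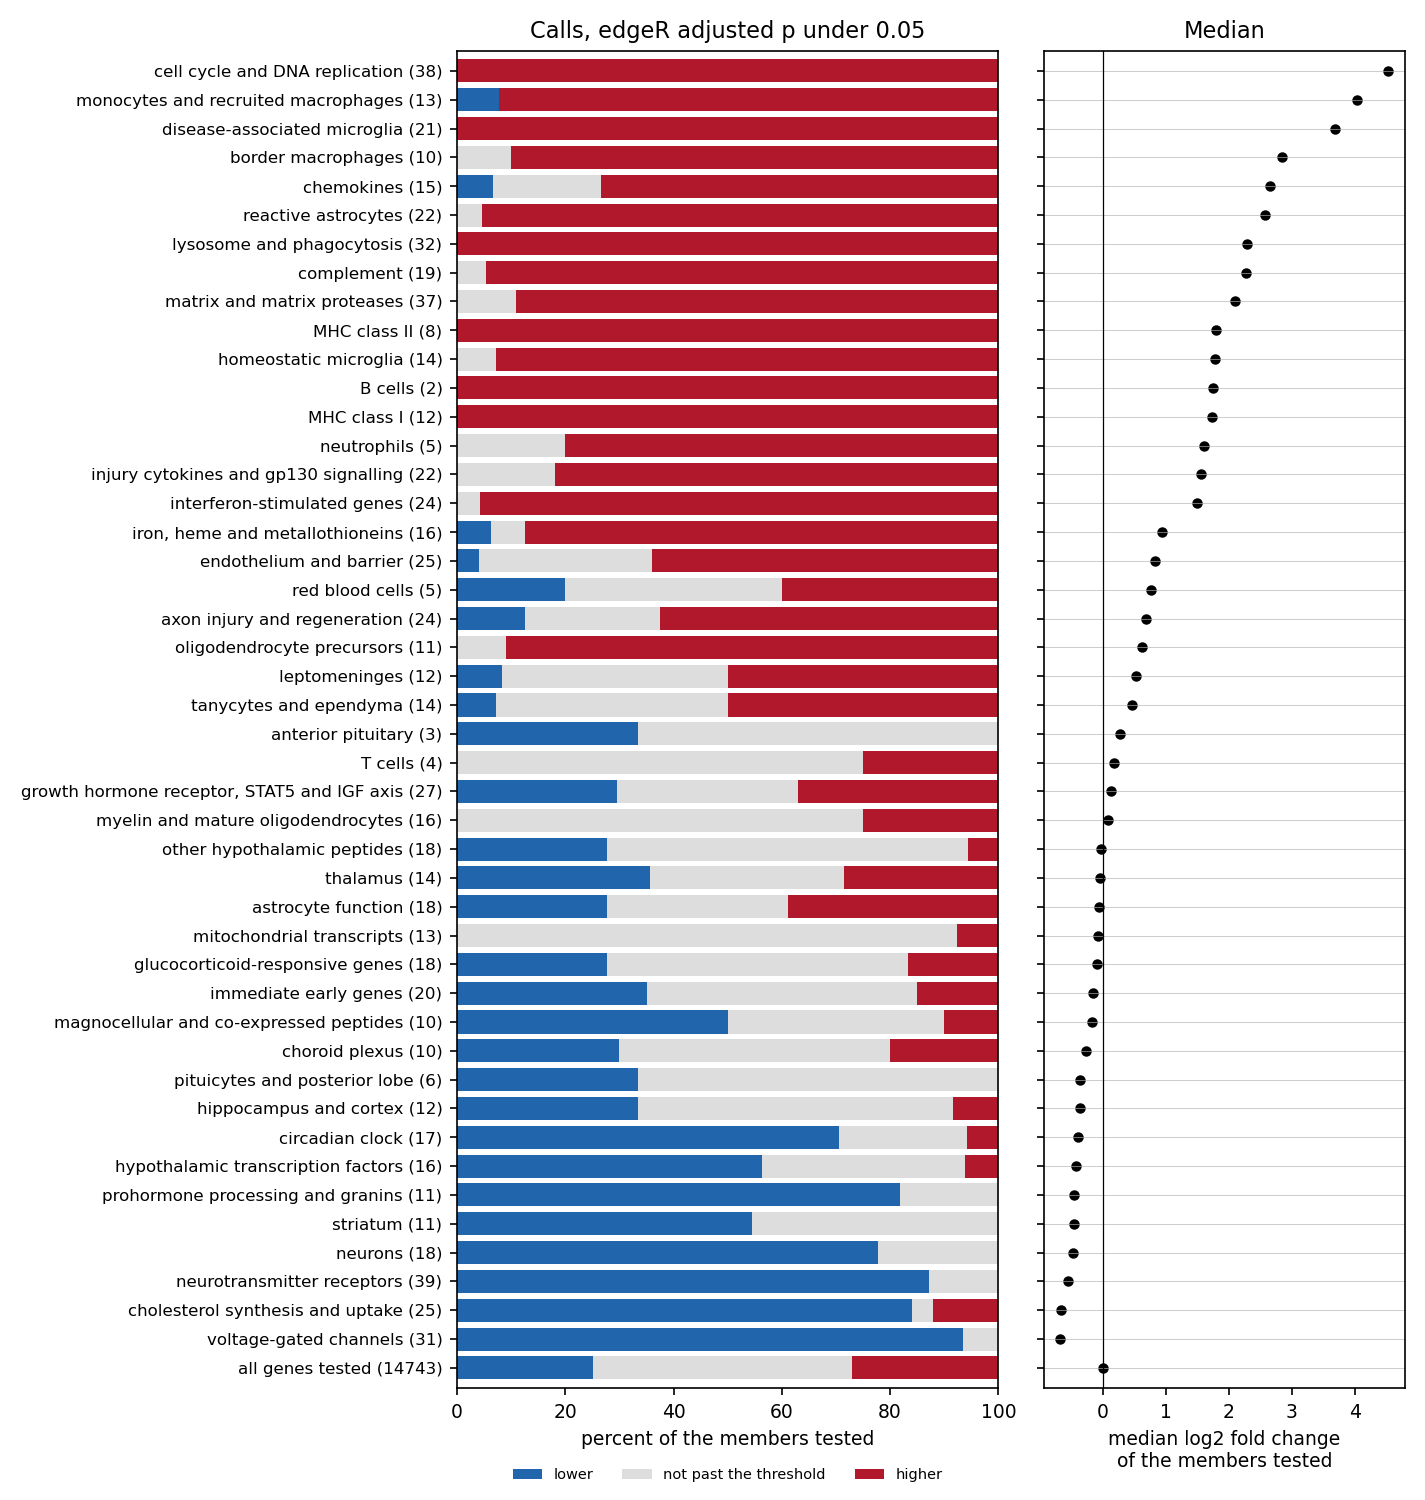
Left, percent of the members tested in each gene list (number in brackets) that were higher (red), lower (blue) or not past the threshold (grey) in PEL_3d_GH against Sham_GH; right, the median log2FC of the members tested. Cell cycle genes have the highest median at 4.54 and voltage-gated channels the lowest at -0.67, with all genes tested at -0.002 in the bottom line.

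Sterol genes also mostly fell: 21 of 25 were lower, against 25.2% of all genes, and 3 were higher, with a median of -0.66. Idi1, an isomerase of the mevalonate pathway, held 44.7, 46.3 and 45.4 CPM in PEL_3d_GH and 86.3, 82.1 and 88.6 in Sham_GH and had the lowest adjusted p of all lowered genes (log2FC -0.91, SE 0.065, edgeR adjusted p = 3.42e-06). Insig1, a sterol sensor of the endoplasmic reticulum, was at 45.8, 47.7 and 49.4 against 103, 84.3 and 95.01 CPM (log2FC -0.98, SE 0.083, edgeR adjusted p = 9.77e-06). Srebf2, the factor that drives these genes, fell from 231, 236 and 223 to 120.2, 139 and 149 CPM (log2FC -0.76, SE 0.081, edgeR adjusted p = 4.16e-05).

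The members of the sterol list that handle surplus cholesterol went the other way. Abca1, which exports cholesterol, rose from 64.8, 69.2 and 60.9 to 330.2, 346 and 204 CPM (log2FC 2.17, SE 0.17, edgeR adjusted p = 6.67e-06). Soat1, which esterifies it for storage, rose from 47.5, 49.6 and 50.1 to 138, 149.97 and 98.7 CPM (log2FC 1.39, SE 0.13, edgeR adjusted p = 2.17e-05), and Abcg1, a further exporter, had a log2FC of 0.28. Pmvk, a kinase of the pathway, was the 1 member that did not pass, at -0.12.

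Clock genes fell in 12 of 17 members, against 25.2% of all genes, with a median of -0.40. Nr1d1, the repressor REV-ERB alpha, was at 38.8, 43.4 and 48.5 against 78.6, 75.5 and 74.9 CPM (log2FC -0.81, SE 0.086, edgeR adjusted p = 4.16e-05), and Dbp, an output factor of the clock, at 34.5, 41.98 and 42.7 against 64.01, 60.4 and 57.1 (log2FC -0.61, SE 0.094, edgeR adjusted p = 0.000453). Ciart, a clock repressor, fell the most (-0.81). Bhlhe41 was the 1 member that rose (0.21), and it lost its call without PEL_3d_GH 1 (0.17), PEL_3d_GH 2 (0.17), Sham_GH 1 (0.20), Sham_GH 2 (0.21) or Sham_GH 3 (0.21), or with DESeq2, a replicate block or limma (edgeR, DESeq2 and limma adjusted p from 0.00172 to 0.148). Falls were found in Arntl as well as in Per1 and Per2, at -0.36, -0.67 and -0.29. The hour of sampling was not given in the sources used here, and its part was not tested.

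Of 20 immediate early genes tested, 3 were higher and 7 lower, against 26.9% and 25.2% of all genes. Fos itself was at 20.7, 15.6 and 12.9 CPM against 20.1, 15.1 and 14.99, and the groups overlapped (log2FC -0.028, SE 0.18, edgeR adjusted p = 0.91). Egr1 fell from 61.95, 54.8 and 52.8 to 32.7, 30.1 and 35.4 CPM (log2FC -0.79, SE 0.092, edgeR adjusted p = 7.73e-05), and Nr4a2 from 22.4, 11.8 and 11.8 to 4.24, 7.19 and 5.93 (log2FC -1.403, SE 0.28, edgeR adjusted p = 0.00188). Fosb was lower too, at 2.27, 1.64 and 1.996 against 3.67, 5.52 and 4.03 CPM (log2FC -1.16, SE 0.24, edgeR adjusted p = 0.00269). Those that rose were Junb, Ier2 and Klf2, with log2FCs of 0.42, 0.72 and 0.63; the Ier2 call was lost without Sham_GH 2 (0.62). The sign of the Fos value changed without PEL_3d_GH 3 (0.13).

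Glucocorticoid-responsive genes gave no common direction: 3 of 18 rose, 5 fell and 10 did not pass, against 26.9% and 25.2% of all genes, with a median of -0.10. Fkbp5, a chaperone induced by corticosterone, held 70.7, 72.2 and 63.4 CPM against 43.2, 52.2 and 55.1 (log2FC 0.45, SE 0.10, edgeR adjusted p = 0.00303). Tsc22d3 and Klf9, which corticosterone also induces, fell, with log2FCs of -0.56 and -0.56, as did Arrdc2, an arrestin-like gene (-0.79). Mt2, a metallothionein, rose from 127, 104 and 147 to 309, 300.2 and 247 CPM (log2FC 1.18, SE 0.12, edgeR adjusted p = 3.89e-05).

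Since all 6 libraries came from mice given GH, the GH axis was read gene by gene. Time on GH may differ between the groups along with the lesion, and its part in these values cannot be told apart. Ghr, the receptor, was at 22.5, 24.1 and 22.6 CPM in PEL_3d_GH and 27.2, 31.5 and 25.7 in Sham_GH, without overlap and with a small fall (log2FC -0.29, SE 0.10, edgeR adjusted p = 0.0342); the call was lost without PEL_3d_GH 1 (-0.27), Sham_GH 1 (-0.31) or Sham_GH 2 (-0.19), or with DESeq2, a mean count of at least 50 or the fit over all hypothalamic groups, with edgeR, DESeq2 and limma adjusted p from 0.0272 to 0.176. Stat5b fell, at 71.7, 72.7 and 83.6 against 95.9, 98.7 and 88.9 CPM (log2FC -0.31, SE 0.078, edgeR adjusted p = 0.00685). Stat5a rose from 5.28, 5.402 and 5.36 to 8.78, 7.38 and 6.99 CPM (log2FC 0.53, SE 0.16, edgeR adjusted p = 0.0166), and its call was lost without PEL_3d_GH 1 (0.43) or Sham_GH 1 (0.52), or with limma, with edgeR, DESeq2 and limma adjusted p from 0.00733 to 0.413. Its exons overlap those of Stat3, which rose too.

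Socs2 and Cish, which STAT5 induces, did not pass. Socs2 held 17.6, 16.6 and 16.9 CPM against 14.1, 13.3 and 6.43, above the sham libraries in all 3 replicates, and missed the threshold (log2FC 0.59, SE 0.23, edgeR adjusted p = 0.0545). It passed in DESeq2, with a replicate block, with a mean count of at least 50, without the filter on low counts and without PEL_3d_GH 3 (0.61) or Sham_GH 1 (0.78), with edgeR, DESeq2 and limma adjusted p from 0.0201 to 0.215, and without replicate 3 of Sham_GH its log2FC was 0.32. Cish was at 8.17, 11.5 and 12.4 against 15.2, 7.76 and 3.78 CPM, a range that overlaps widely (log2FC 0.27, SE 0.38, edgeR adjusted p = 0.581), and it passed without Sham_GH 1 (0.88) and was negative without Sham_GH 3 (-0.086). Bcl6, which STAT5 represses in liver, fell from 26.96, 21.8 and 37.7 to 20.5, 19.6 and 15.5 CPM (log2FC -0.64, SE 0.19, edgeR adjusted p = 0.0164), but the call was lost without Sham_GH 3 (-0.39), with edgeR, DESeq2 and limma adjusted p from 0.00293 to 0.0729.

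Igf1, a GH target in liver that phagocytic microglia also make, rose from 11.4, 14.5 and 8.001 to 77.8, 84.7 and 44.9 CPM, with replicate 3 lowest of the lesioned libraries (log2FC 2.604, SE 0.26, edgeR adjusted p = 2.58e-05). Igfbp7, a binding protein of vessels, rose from 16.9, 15.7 and 12.3 to 71.01, 83.5 and 64.5 CPM (log2FC 2.29, SE 0.13, edgeR adjusted p = 1e-06). Ghsr, the ghrelin receptor, fell from 14.3, 11.7 and 13.04 to 4.79, 7.75 and 5.55 CPM (log2FC -1.11, SE 0.18, edgeR adjusted p = 0.000665). Over 27 tested of 29 listed members of the axis, 10 rose, 8 fell and 9 did not pass, against 26.9% and 25.2% of all genes, with a median of 0.13.

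**Figure D3:**
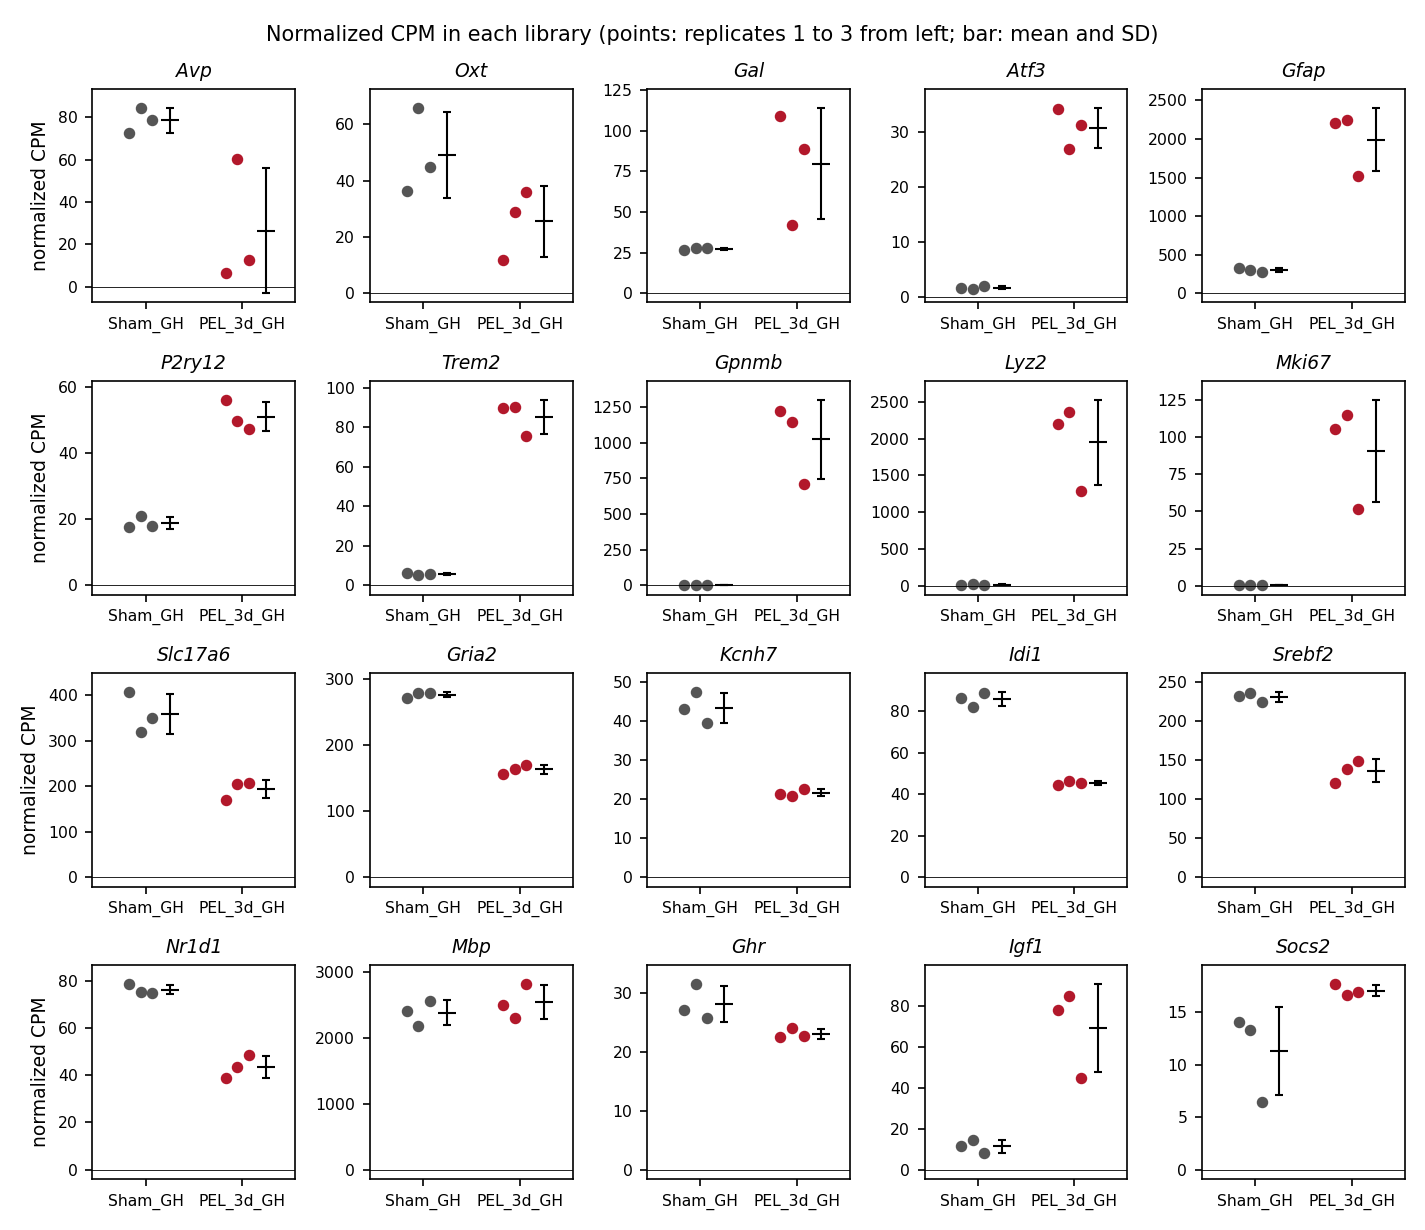
CPM of 20 genes in each library (points, replicates 1 to 3 from left to right in Sham_GH and PEL_3d_GH), with the mean and SD as a bar beside them. Gpnmb reaches 1220.3, 1143 and 710.1 CPM after the lesion from about 2 CPM or less in sham libraries, while Mbp overlaps between the groups.

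Some of the largest falls were in genes known from small brain regions, which are named one by one and were not tested as a list. Slc6a3 (chr13:73536747-73578672), the dopamine transporter, held 2.52, 3.85 and 2.94 CPM in PEL_3d_GH and 46.5, 5.86 and 15.2 in Sham_GH. The sham libraries themselves differed several fold, with replicate 1 far above the others (log2FC -2.85, SE 0.64, edgeR adjusted p = 0.00384), and without replicate 1 of Sham_GH the log2FC was -1.76. Chrnb3 and Chrna6 are nicotinic subunits of dopamine neurons. Chrnb3 fell with a log2FC of -2.54. Chrna6 showed the same high sham library, at 0.983, 1.83 and 1.66 against 14.2, 1.78 and 5.73 CPM, and the groups overlapped (log2FC -2.26, SE 0.62, edgeR adjusted p = 0.0119), and its call was lost without Sham_GH 1 (-1.32), with edgeR, DESeq2 and limma adjusted p from 0.00101 to 0.0565. Th, also a gene of dopamine neurons, had a log2FC of -0.48 (edgeR adjusted p = 0.0473) and was called in 7 of 13 alternatives. The Th call was lost without PEL_3d_GH 1 (-0.39), PEL_3d_GH 2 (-0.35), Sham_GH 1 (-0.325) or Sham_GH 3 (-0.52), among others.

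Foxb1, a factor of the mammillary bodies, was at 2.58, 8.26 and 3.22 CPM after the lesion and 24.4, 19.1 and 18.1 in sham libraries (log2FC -2.14, SE 0.34, edgeR adjusted p = 0.000476). Cpne9, a calcium-binding copine, was at 5.099, 18.98 and 8.15 against 49.2, 31.6 and 37.9 CPM (log2FC -1.89, SE 0.36, edgeR adjusted p = 0.00157). In both, replicate 2 of PEL_3d_GH was the highest of the lesioned libraries. Barhl1, also of the mammillary region, was at 0.246, 0.946 and 0.721 against 3.02, 1.78 and 1.89 CPM (log2FC -1.79, SE 0.43, edgeR adjusted p = 0.00554). Crabp1, a retinoic acid-binding protein, fell with less spread, from 9.46, 7.41 and 8.88 to 1.47, 1.89 and 2.66 CPM (log2FC -2.08, SE 0.23, edgeR adjusted p = 5.12e-05).

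Other large falls were in genes of low level or uncertain identity. Irx6, a homeobox factor, Mypn, a sarcomere protein, Ttn, titin, and Zar1, an oocyte factor, had log2FCs of -2.404, -1.99, -1.89 and -1.75. Gm49358, which overlaps Nt5dc3 and Ttc41, was at 0, 0 and 1.39 CPM against 4.37, 7.53 and 1.701 (log2FC -3.200, SE 0.88, edgeR adjusted p = 0.0118). Without PEL_3d_GH 3 its lesioned libraries are all at 0, and the call was lost without Sham_GH 2 (-2.61), or with DESeq2. Gm28285, which overlaps Matr3, was at 0.184, 0.756 and 0.333 against 1.22, 2.41 and 1.26 CPM (log2FC -1.95, SE 0.50, edgeR adjusted p = 0.0081), and lost its call with limma or the fit over all hypothalamic groups, with edgeR, DESeq2 and limma adjusted p from 0.00229 to 0.0544. The exons of Gm49339, among the largest rises at 57.2, 63.1 and 31.2 against 0.193, 0.115 and 0.189 CPM (edgeR adjusted p = 5.37e-07), overlap those of Lilr4b and Lilrb4a. Other genes named here whose exons overlap another gene are Spp1, Ctsd, Top2a, Apoc2, Gria2, Cd74 and Pdgfra (same strand) and Mmp12, Tgm1, Foxb1, Cpne9, Grm2, Idi1, Pclo, Sv2b, Bdnf, Pcsk2, Nkx2-2, F13a1, Gpr17, Igfbp7, Bcl6, Cdkn1a, Mt2, Nr1d1, Kcnh7, Jun, P2ry12, Cx3cr1, Cish, Icam1, Dbp and Rgs6 (opposite strand). Whether counting used strand was not given in the sources used here, so these levels are uncertain.

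The deposited FPKM of the other hypothalamic sham group, which had no GH, bear on these falls. Foxb1 stood at 3.09 and 1.203 FPKM in replicates 2 and 3 of Sham, 8.12, 6.39 and 5.98 in Sham_GH and 0.873, 2.78 and 1.09 in PEL_3d_GH. Grm2 stood at 2.87 and 1.72, 10.7, 7.503 and 7.04 and 1.28, 3.58 and 2.42 FPKM in the same groups. In both genes the Sham_GH libraries were above the Sham libraries. The lesioned libraries overlapped the sham libraries without GH. The share of tissue taken from each region was not measured, and its part in these falls was not tested. The library labelled Sham 1 was left out here because its FPKM of Ttr, a choroid plexus gene, was 14319.7 and that of Avp 0.453.

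**Figure D4:**
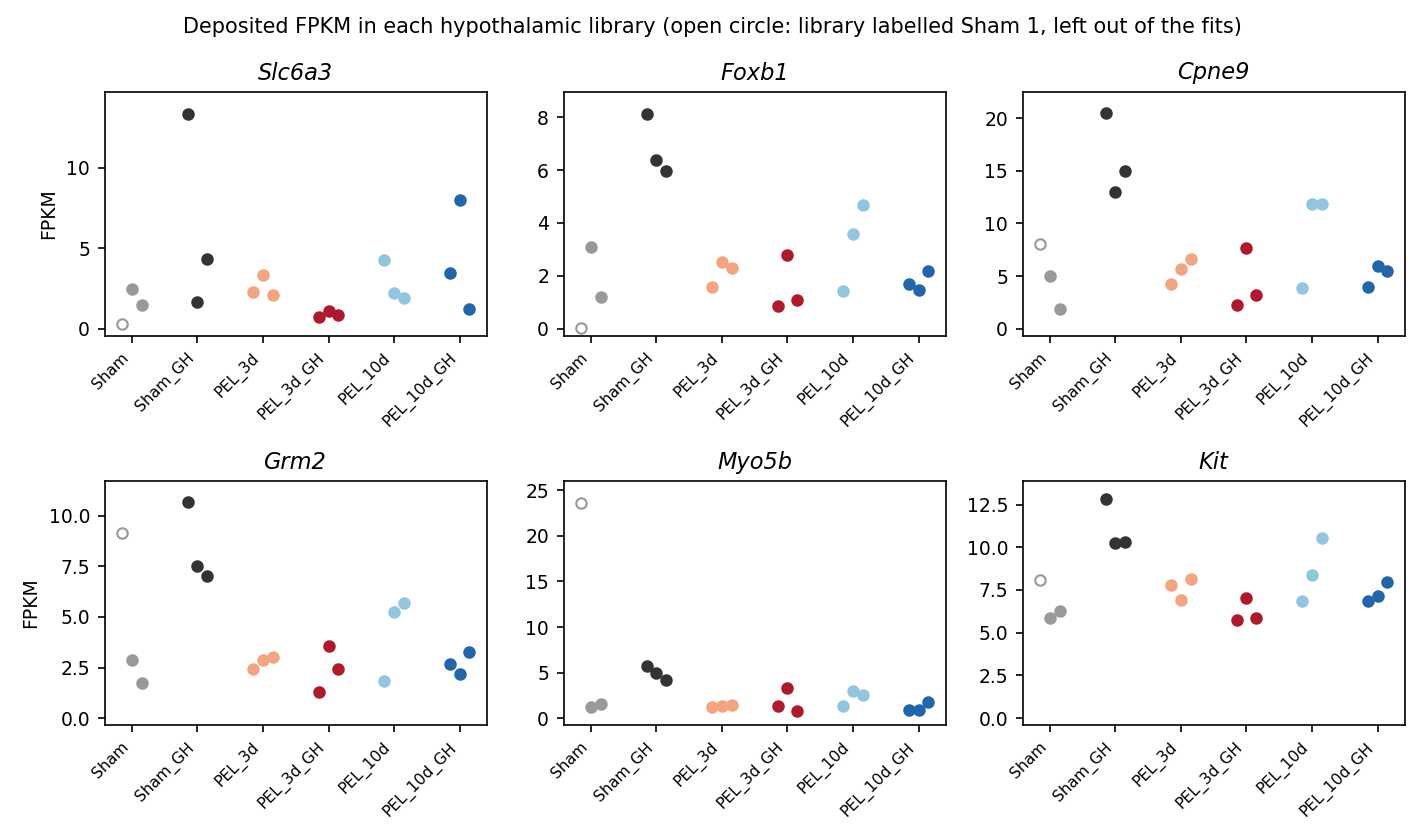
Deposited FPKM of 6 lowered genes in each library of the 6 hypothalamic groups (points; open circle, the library labelled Sham 1). Foxb1 is at 8.12, 6.39 and 5.98 in Sham_GH, at 3.09 and 1.203 in Sham replicates 2 and 3, and at 0.873, 2.78 and 1.09 in PEL_3d_GH.

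Markers of neighbouring tissue were read in the same way. Of the 3 tested of 11 anterior pituitary genes 1 fell and 2 did not pass, and the list summed to 16.5, 33.02 and 12.5 FPKM in PEL_3d_GH and 34.4, 17.9 and 26.8 in Sham_GH, with Cga the most abundant. Posterior lobe and pituicyte genes, which the hypothalamus also expresses, fell in 2 of 6 cases, near the 25.2% of all genes, with summed FPKM of 41.05, 43.4 and 40.6 against 55.7, 60.05 and 54.9, and besides Nkx2-1 the other that fell was the collagen Col25a1 (-0.47). Choroid plexus genes summed to 19.1, 20.2 and 21.01 against 24.5, 27.5 and 33.6 FPKM, with Clic6 the most abundant, and of 10 tested 2 rose, 3 fell and 5 did not pass, against 26.9% and 25.2% of all genes. Ttr held 2.76, 3.47 and 5.16 CPM against 1.74, 4.14 and 13.5 and overlapped (log2FC -0.76, SE 0.58, edgeR adjusted p = 0.295), while Clic6 fell from 27.5, 28.4 and 27.4 to 12.04, 11.4 and 14.4 CPM (log2FC -1.14, SE 0.11, edgeR adjusted p = 2.25e-05). Kl, the anti-aging hormone klotho, fell too (-0.72), and Aqp1, a water channel, rose (2.596). Without Sham_GH 3 the Ttr value was 0.37.

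Markers of hippocampus, cortex and striatum had medians near that of the neuronal genes. Hippocampal and cortical genes summed to 111, 109 and 141 FPKM against 174, 182 and 170.2, with Camk2a the most abundant, and of 12 tested 1 rose and 4 fell (median -0.36; 26.9% and 25.2% of all genes), among them Camk2a (-0.70) and the dentate factor Prox1 (-0.49). Striatal genes summed to 97.7, 90.1 and 118 against 118, 119 and 121, with Penk the most abundant, and 6 of 11 tested fell (median -0.46), with Gpr6 (-1.07), an orphan receptor, and Syndig1l (-0.83), a synaptic protein, falling the most. Thalamic genes summed to 192, 178 and 222 against 226, 199 and 242, with Calb2 the most abundant, and of 14 tested 4 rose and 5 fell (median -0.038), also near the shares of all genes. The kinase Prkcd (2.27) and the factor Gbx2 (1.22) rose the most, Gbx2 losing its call without PEL_3d_GH 2 (1.201), PEL_3d_GH 3 (0.96), Sham_GH 1 (1.01) or Sham_GH 2 (1.15), or with DESeq2 or the fit over all hypothalamic groups, and the axon guidance gene Ntng1 fell (-0.95). Slitrk6, the thalamic gene with the largest fall, was at 5.41, 10.7 and 7.38 against 23.996, 18.1 and 17.7 CPM (log2FC -1.35, SE 0.22, edgeR adjusted p = 0.000624). Of 13 mitochondrial transcripts mt-Nd3, a complex I subunit, rose (0.41) and 12 did not pass, with a median of -0.075. Without PEL_3d_GH 1 the mt-Nd3 value was 0.27, and its call was lost without Sham_GH 1 (0.37).

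The same lesion was also made in mice without GH, and was tested in a fit that also holds the 6 libraries above. All 32 lysosomal and all 38 cell cycle genes rose there too, as did 20 of 22 reactive astrocyte genes. The tanycyte and ependymal list changed the sign of its median. Of 14 genes, 2 rose and 4 fell without GH (median log2FC -0.515), beside 7 and 1 with GH (0.473). The red blood cell median was -0.296 without GH and 0.767 with GH. Whether whole lists differ with GH was not tested. Without GH, 5930 of 15164 genes (39.1%) passed, 3375 higher (22.3%) and 2555 lower (16.8%), with only 2 sham libraries. The lower count was 1678 without PEL_3d 3, 1086 without Sham 2, 1594 without Sham 3 and 1004 with the library labelled Sham 1, and the shares below rest on the fit that gave 2555. Of the 14743 genes tested in both, 2960 were higher in both comparisons, which is 74.5% of the 3973 higher with GH and 89.5% of the 3307 higher without. Lower in both were 2097, which is 56.6% of the 3708 lower with GH and 82.7% of the 2537 lower without.

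The difference itself, tested as an interaction in edgeR, passed in 7 of 15164 genes (0.0462%), 1 higher and 6 lower under GH; at an unadjusted p of 0.05 there were 628 and 966, and DESeq2 gave 35 and 107. The count hung on single libraries. Without PEL_3d_GH 3 it was 167 higher and 466 lower, without PEL_3d_GH 2 it was 1 and 14, without PEL_3d 2 it was 0 and 2, without Sham 3 it was 1 and 0, and without any other library, or with a replicate block, no gene passed. Apoe was the 1 higher gene. Without GH it held 2904, 2627 and 3112 CPM after the lesion and 1887 and 1937 in the sham libraries (log2FC 0.59, SE 0.10, edgeR adjusted p = 0.000428), a smaller rise than that under GH (difference in log2FC 0.83, SE 0.13, edgeR adjusted p = 0.0452). Its call was lost without PEL_3d 1 (0.84), PEL_3d 2 (0.77), PEL_3d 3 (0.90), PEL_3d_GH 1 (0.77), PEL_3d_GH 2 (0.81), Sham 2 (0.85), Sham 3 (0.81), Sham_GH 1 (0.83), Sham_GH 2 (0.81) or Sham_GH 3 (0.86), and in 15 of 18 alternatives altogether, with edgeR and DESeq2 adjusted p from 2.15e-06 to 0.562.

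Among the 6 lower genes were Kit, Grm2, the myosin Myo5b, the signalling regulator Rgs6 and the glycogen enzyme Pygm. Kit, the stem cell factor receptor, fell under GH from 67.6, 53.6 and 54.7 to 29.9, 36.7 and 30.3 CPM and held 39.9, 35.7 and 42.01 after the lesion without GH, against 30.8 and 32.4 in its sham libraries (difference in log2FC -1.17, SE 0.16, edgeR adjusted p = 0.0329). Grm2, a presynaptic glutamate receptor, was at 5.84, 13.2 and 9.095 against 40.1, 28.1 and 30.3 CPM with GH and at 9.41, 11.4 and 13.6 against 9.18 and 6.401 without (difference in log2FC -2.37, SE 0.37, edgeR adjusted p = 0.0452). For Grm2 the sham libraries with GH were the ones that stood apart from the other 3 groups. The Kit call was lost without PEL_3d 1 (-1.15), PEL_3d 3 (-1.11), PEL_3d_GH 1 (-1.12), Sham 2 (-1.14), Sham 3 (-1.21), Sham_GH 1 (-1.06), Sham_GH 2 (-1.23) or Sham_GH 3 (-1.22), and that of Grm2 without PEL_3d 1 (-2.49), PEL_3d 2 (-2.37), PEL_3d 3 (-2.22), PEL_3d_GH 1 (-2.12), Sham 2 (-2.65), Sham 3 (-2.13), Sham_GH 1 (-2.196), Sham_GH 2 (-2.46) or Sham_GH 3 (-2.42), or with DESeq2's size factors, a mean count of at least 50, a replicate block, the fit over all hypothalamic groups or the library labelled Sham 1, with edgeR and DESeq2 adjusted p from 8.6e-07 to 0.562 and from 1.12e-06 to 0.633. Myo5b, Rgs6 and Pygm were called in 6, 6 and 7 of the 18 alternatives. The Myo5b call was lost without PEL_3d 1 (-2.48), PEL_3d 2 (-2.41), PEL_3d 3 (-2.33), PEL_3d_GH 1 (-2.27), Sham 2 (-2.61), Sham 3 (-2.24), Sham_GH 1 (-2.21), Sham_GH 2 (-2.54) or Sham_GH 3 (-2.47), that of Rgs6 without PEL_3d 1 (-1.16), PEL_3d 2 (-1.099), PEL_3d 3 (-1.21), PEL_3d_GH 1 (-1.08), Sham 2 (-1.17), Sham 3 (-1.16), Sham_GH 1 (-1.07), Sham_GH 2 (-1.16) or Sham_GH 3 (-1.25), and that of Pygm without PEL_3d 1 (-0.83), PEL_3d 3 (-0.89), PEL_3d_GH 1 (-0.87), Sham 2 (-0.97), Sham 3 (-0.84), Sham_GH 1 (-0.82), Sham_GH 2 (-0.94) or Sham_GH 3 (-0.93). These and Kit also lost it with a replicate block, the fit over all hypothalamic groups or the library labelled Sham 1.

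Gfap and Atf3 rose with and without GH. Gfap had a log2FC of 2.73 with GH and 2.76 without, and Atf3 4.26 and 4.97. Avp fell without GH with a log2FC of -2.75 (edgeR adjusted p = 0.00183), beside -1.58 with it, and the difference did not pass (difference in log2FC 1.16, SE 0.76, edgeR adjusted p = 0.645). Gpr17 had a log2FC of 1.76 with GH and 0.59 without, and the difference did not pass (difference in log2FC 1.17, SE 0.22, edgeR adjusted p = 0.0932). A p that misses the threshold does not show that the effects are equal.

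By day 10 after the lesion under GH, dividing-cell genes had returned toward sham levels and myelin genes had risen. The PEL_10d_GH libraries were set against the same PEL_3d_GH libraries as above, and 2315 of 14838 genes passed (15.6%), 713 higher (4.81%) and 1602 lower (10.8%) at day 10. Higher and lower genes were 122 and 582 without PEL_3d_GH 1, 246 and 824 without PEL_3d_GH 2, 1984 and 2451 without PEL_3d_GH 3, 318 and 851 without PEL_10d_GH 1, 176 and 791 without PEL_10d_GH 2, and 189 and 920 with a replicate block. All 38 tested cell cycle genes were lower at day 10, and all 16 tested myelin genes were higher. Mki67 held 4.54, 3.73 and 4.703 CPM at day 10 (log2FC -4.397, SE 0.31, edgeR adjusted p = 0.000236), still above the sham libraries in each replicate. Mbp held 4303, 4514 and 4051 CPM (log2FC 0.74, SE 0.10, edgeR adjusted p = 0.00233).

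Some phagocyte genes passed at day 10 and others did not, and differences between genes were not tested. Gpnmb still held 179, 361 and 702 CPM at day 10 and did not pass (log2FC -1.32, SE 0.42, edgeR adjusted p = 0.0624), while Spp1 dropped to 92.5, 241 and 302 CPM (log2FC -4.62, SE 0.47, edgeR adjusted p = 0.000755). Lysosomal genes were lower in 24 of 32 tested, and those of disease-associated microglia in 11 of 21, against 10.8% of all genes. Of the lowered neuronal groups, 11 of 31 channels and 9 of 39 receptors were higher at day 10, against 4.81% of all genes. Gria2 held 223, 210.3 and 203 CPM (log2FC 0.36, SE 0.068, edgeR adjusted p = 0.00983), between its day 3 and its sham values. Avp was at 55.3, 80.8 and 53.7 CPM and did not pass (log2FC 1.26, SE 0.63, edgeR adjusted p = 0.197).

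The largest day 10 rises were in genes of low level. Gh was at 0.766, 6.58 and 4.24 CPM at day 10 (edgeR adjusted p = 0.00579), with 1 count at day 3, and lost its call without PEL_3d_GH 1 (edgeR adjusted p = 0.0502, from 9.31e-07 to 0.0502 over the alternatives). Cpz, a carboxypeptidase, and the neutrophil granule genes Ngp and Ltf had log2FCs of 4.61, 3.53 and 2.58, and Shisa3, a modulator of Wnt signalling, of 2.86. Ltf lost its call without PEL_3d_GH 1 (2.69), PEL_3d_GH 2 (2.71), PEL_10d_GH 1 (1.66) or PEL_10d_GH 2 (2.78), and Shisa3 without PEL_3d_GH 1 (2.71), PEL_3d_GH 2 (3.53) or PEL_10d_GH 3 (1.77), or with a replicate block. Large falls were found in the mitotic genes Pbk, Ccnb1, Pimreg and Bub1, at -5.56, -5.203, -5.15 and -4.88.

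Gene starts were then read for short motifs, as a description only. Promoters from 250 bases before to 50 after the gene start, taken from RefSeq (GRCm38.p6), were matched for 11456 of the tested genes. The AP-1 motif TGANTCA, which Atf3 and Jun proteins bind, was found on either strand in 257 of 3119 promoters of higher genes (8.24%), 171 of 2851 of lower genes (6.0%) and 724 of all (6.32%). The STAT motif TTCNNNGAA was found in 7.86% of higher, 7.68% of lower and 8.17% of all promoters. The CRE TGACGTCA was found in 2.34%, 3.47% and 3.42%. A match says only that these letters are present.

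The promoters of 4 genes that rose from a sham level near 0 and of Gfap are shown because each holds such a motif in the window. Mmp3 (chr9:7445572-7445871, + strand), Mmp10 (chr9:7502092-7502391, + strand) and Mmp12 (chr9:7347124-7347423, + strand) are neighbours on 1 chromosome, and Sprr1a lies at chr3:92485832-92486131 (- strand). Gfap, a gene known to be driven by STAT3 in reactive astrocytes, lies at chr11:102897151-102897450 (- strand). Each sequence is the window of 300 bases of GRCm38.p6 from RefSeq, 5′ to 3′ in the direction of the gene, with AP-1 matches in capitals in the first 4 and the STAT match in capitals in Gfap.
Mmp3: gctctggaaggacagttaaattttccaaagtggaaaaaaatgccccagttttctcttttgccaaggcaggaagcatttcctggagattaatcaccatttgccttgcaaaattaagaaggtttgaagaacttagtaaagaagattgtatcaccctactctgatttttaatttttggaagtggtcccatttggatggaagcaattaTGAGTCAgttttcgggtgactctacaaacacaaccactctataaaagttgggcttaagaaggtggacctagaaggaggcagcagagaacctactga
Mmp10: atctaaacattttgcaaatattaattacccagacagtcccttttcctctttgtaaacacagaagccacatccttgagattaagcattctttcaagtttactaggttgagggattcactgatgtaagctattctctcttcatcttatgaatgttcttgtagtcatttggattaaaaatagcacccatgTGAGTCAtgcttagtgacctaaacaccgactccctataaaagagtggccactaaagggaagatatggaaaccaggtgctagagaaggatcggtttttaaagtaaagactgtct
Mmp12: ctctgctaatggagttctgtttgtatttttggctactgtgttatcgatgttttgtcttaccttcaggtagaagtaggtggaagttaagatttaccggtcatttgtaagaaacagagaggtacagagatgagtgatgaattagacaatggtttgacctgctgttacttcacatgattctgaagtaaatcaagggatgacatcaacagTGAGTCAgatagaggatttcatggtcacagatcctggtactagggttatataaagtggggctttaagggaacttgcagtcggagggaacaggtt
Sprr1a: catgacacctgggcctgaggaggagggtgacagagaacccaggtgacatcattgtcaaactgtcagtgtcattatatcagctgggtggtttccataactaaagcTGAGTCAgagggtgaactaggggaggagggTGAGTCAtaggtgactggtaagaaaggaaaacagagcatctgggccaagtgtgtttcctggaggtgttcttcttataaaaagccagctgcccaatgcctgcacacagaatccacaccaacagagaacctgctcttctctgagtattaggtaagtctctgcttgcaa
Gfap: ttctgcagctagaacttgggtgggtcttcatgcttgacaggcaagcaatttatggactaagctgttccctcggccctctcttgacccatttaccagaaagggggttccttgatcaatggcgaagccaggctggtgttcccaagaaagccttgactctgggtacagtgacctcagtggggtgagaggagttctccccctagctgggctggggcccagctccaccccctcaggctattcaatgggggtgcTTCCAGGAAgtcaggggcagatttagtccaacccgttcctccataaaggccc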

How the data were processed

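The authors aligned the reads with Hisat2 to GRCm38 and counted them with featureCounts; the estimated counts and the FPKM values were used as deposited. The table holds 22274 genes, and 8.24% of the count values in the 6 libraries are not whole, so counts were rounded. The paper does not say how values that are not whole arose, so how shared reads were assigned is uncertain. Tests used edgeR 4.0.16 (quasi-likelihood, TMM, filterByExpr at a count of 10), with p-values adjusted by Benjamini-Hochberg and a threshold of 0.05. Each fit held its own groups; those without GH used a fit of 4 groups that left out the library labelled Sham 1. The SE is the absolute log2FC over the square root of F. Alternatives used DESeq2 1.42.0, limma 3.58.1 on log2 FPKM (pseudocount 0.1), other filters, other scalings and leaving out each library.

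Named genes follow a written rule, not all of whose genes are printed: the 15 largest rises and falls past the threshold without overlap and with a mean of at least 1 CPM, the 5 lowest adjusted p in each direction, up to 2 called members per list and direction, a fixed list of 24, and up to 5 per direction in the other comparisons. The rest were chosen after their values were seen. The lists, their members and the fixed genes were chosen with earlier results of these data known. Medians of lists are over the members tested.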

Additional observations from a re-analysis of the deposited data

Results flagged for a closer look

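A test of the difference between groups picked out 7 genes whose lesion effect at day 3 differed with and without GH, and 6 of them follow. The difference in log2FC was 0.835 for Apoe, -2.413 for Myo5b, -2.365 for Grm2, -1.17 for Kit, -1.163 for Rgs6 and -0.90 for Pygm, and each of these calls was lost without some single libraries. A test between day 10 and day 3 after the lesion under GH picked out further genes. The log2FC was 7.122 for Gh, inexact since day 3 held 1 count, 4.607 for Cpz, 3.528 for Ngp, 2.857 for Shisa3 and 2.582 for Ltf, and -5.564 for Pbk, -5.203 for Ccnb1, -5.151 for Pimreg and -4.875 for Bub1.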

How the results depend on the processing

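Under GH at day 3, the counts of higher and lower genes were within 1.5 times the reported ones in 28 of 30 comparisons with an alternative. Without 1 library they ranged from 3346 to 4562 higher and from 2886 to 4253 lower. Requiring an absolute log2FC of at least 1 left 1699 and 135. Of the 7681 genes called by edgeR, 7243 were also called by DESeq2 (94.3%), and 6651 by limma on FPKM. Of 211 genes examined one by one, 24 lost their call in at least 1 alternative, 5 gained one and 6 reversed. Of the list counts, 1060 stayed within 1.5 times and 110 did not.

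At day 3 under GH the values that reversed belonged to genes that had not passed in edgeR. Fos was 0.007 with a mean count of at least 50, and ran from -0.228 to 0.130 without 1 library. In the same way Crh ran from -0.26 to 0.932, Sst from -0.293 to 0.150, Cish from -0.086 to 0.881, Socs1 from -0.226 to 0.369 and Ttr from -1.206 to 0.371. The Myo5b difference with and without GH, which had passed, was 0.349 with the library labelled Sham 1. The cause was not tested.

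Without GH, 1569 genes were higher and 100 lower at an absolute log2FC of at least 1, and 1004 were lower with the library labelled Sham 1. Without 1 library, 1086 to 2488 were lower. For the difference, edgeR called 0 higher genes with DESeq2's size factors, a mean count of at least 50, one fit over all hypothalamic groups, the library labelled Sham 1 or an absolute log2FC of at least 1, and 7 with no filter. DESeq2 called 35 higher and 107 lower, and unadjusted p under 0.05 gave 628 and 966 in edgeR. Lower genes were 12 with no filter and 0 with the fit over all groups or with Sham 1. Without 1 library there were 0 to 167 higher and 0 to 466 lower. The cause was not tested.

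Day 10 against day 3 moved as well. Higher genes were 1151 in DESeq2, 1771 in the fit over all groups, 67 at an absolute log2FC of at least 1 and 2133 at unadjusted p under 0.05 in edgeR, and lower genes 597 and 2801 at the last 2. Without 1 library there were 122 to 1984 higher and 582 to 2451 lower, and the cause was not tested.

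Between PEL_3d_GH and Sham_GH, deviations from the group mean correlated across genes at -0.068, 0.078 and 0.128 for libraries of the same number. For libraries of different numbers the values ran from -0.131 to 0.091. With so few libraries these values depend on each other, so they cannot decide whether replicate numbers pair the libraries. The libraries of the other groups were not checked in this way. With a replicate block, edgeR called 3990 higher and 3756 lower genes under GH, 0 and 0 for the difference (628 and 966 at unadjusted p without the block, 35 and 107 in DESeq2), and 189 and 920 at day 10.

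Depth limits the genes at the low end: a gene with no count in a sham library is listed at 0, and folds against such groups are bounds. A log2FC against sham values at or below 3 counts per library, as in Ccl3, Osm and Sprr1a, is inexact.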

Other observations

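Genes grouped by the first 3 letters of their symbols, a grouping chosen after the data were seen, included families with a larger share in 1 direction than all genes (26.9% higher, 25.2% lower), some of whose members are in lists above. Of 45 genes beginning with Col, mostly collagens, 30 were higher and 3 lower (median log2FC 1.174). Of 50 genes beginning with Rpl 48 were higher (median 0.568), and of 42 beginning with Rps 34 were higher and 5 lower (median 0.495). Of 80 beginning with Kcn, mostly potassium channels, 51 were lower and 6 higher (median -0.482), and of 69 beginning with Pcd, mostly protocadherins, 30 were lower and 3 higher (median -0.406). Near-identical family members and pseudogenes can share reads, so counts of these ribosomal protein genes are uncertain.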
